A study of Rattus norvegicus with 6 samples.

Results

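Genes that encode chromatin remodelling enzymes, histone methyltransferases and demethylases, DNA methylation enzymes and their core partners were examined in RNA recovered with 2 oligonucleotide pools from GH4C1 cells. GH4C1 is a rat pituitary cell line that makes growth hormone and prolactin. The genes were chosen by symbol alone: Kdm, Kmt, Setd, Chd, Arid and Brd followed by a digit, every symbol that begins with Smarc, Ino80 or Dnmt, and Ezh1, Ezh2, Suz12, Eed, Tet1, Tet2 and Tet3. This gave 88 of the 32883 genes in the table. Related genes with other symbols were handled as separate companion lists. The genes, their roles and these lists were chosen with earlier results of these data known.

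All 6 libraries came from wild type GH4C1 cells treated with psoralen, which crosslinks base-paired nucleic acid strands. The study sought RNAs bound directly to the long noncoding RNA Neat1, and RNA was pulled down with oligo pool A in 3 libraries and with oligo pool B in 3 others. The labels do not say what either pool contains or whether 1 of them was a control, and all libraries come from 1 cell line. A difference between the pools is therefore a difference in recovered RNA between 2 reagents. Neat1 itself and input RNA were not analysed here, and a gene's recovery cannot be told apart from its abundance. As in any bulk sample, fewer cells with a transcript and less of it per cell cannot be told apart. The labels do not say whether the libraries of a pool came from separate cultures. The p-values set the difference between pools against the spread between libraries of a pool, which may be technical only.

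Chromatin carries its regulatory state in part through methyl groups on histone tails and on cytosines in DNA. Writers such as the Kmt, Setd, Ezh and Dnmt proteins add these marks, and erasers such as the Kdm and Tet proteins remove or oxidise them. Remodellers such as SWI/SNF, CHD, ISWI and INO80 complexes use ATP to slide, evict or exchange nucleosomes. In the pituitary these systems are known for their part in lineage commitment and in hormone gene expression.

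Total counts ran from 1826390 to 3685899 per library, so a floor of 3 counts corresponds to between 0.876 and 1.55 CPM. CPM are counts scaled to the library total, which was adjusted by TMM, edgeR's correction for composition. The chromatin genes held between 1.5% and 1.7% of the counts in each library. Of 10 somatolactotroph markers fixed for the check of the cell type, 8 had at least 10 counts in every library, including Gh1, Prl and Pou1f1, the lineage's hormones and its transcription factor. Ghrhr and Drd2 were at 0 in every library. The summed level of these markers was 6586 to 6860 CPM with pool A and 28275 to 35452 CPM with pool B. Chgb, a granule protein gene, made up most of it, and without Chgb the sum was 2658 to 2775 CPM with pool A and 1817 to 1887 CPM with pool B. Prl, Chga and Pitx1 were higher with pool A, and Gh1 and Pou1f1 did not pass. Summed fibroblast markers stayed between 9.17 and 27.4 CPM, blood markers between 9.17 and 21.8 CPM, and endothelial markers between 0 and 0.876 CPM. Markers of other pituitary endocrine cells summed to 16.4 to 25.9 CPM with pool A and to 48.7 to 52.8 CPM with pool B. Stem or folliculostellate markers summed to 45.8 to 51.5 CPM and to 18.3 to 31.2 CPM. The part of these levels in the results below was not tested.

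Of these 88 genes, 82 passed the expression filter and were tested. The other 6 were too low with either pool: Smarca1, Kdm5d and Arid3c had no count in any library, and Smarcb1, Dnmt3l and Kdm4d had at most 10 counts in any library. In edgeR's quasi-likelihood test, with p-values adjusted over all 11582 genes tested, 43 chromatin genes (52.4%) differed between the pools past a threshold of 0.05. Over all genes tested the share was 40.6%. Higher with pool A were 20 chromatin genes (24.4%), where 18.6% of all genes were. Higher with pool B were 23 (28.0%), where 22% of all genes were. Differences that passed the test and exceeded 2-fold were found for 11 genes in favour of pool A and 8 in favour of pool B. Of all genes, 25.4% met this criterion in either direction. CPM ranges of the pools did not overlap for 51 of the 82 (62.2%), against 50% of all genes. The chromatin genes had a median of 347 counts per library, against 72 for all genes tested, and genes with more counts were called more often. Among genes with a mean of at least 100 counts, 39 of 66 chromatin genes (59.1%) and 61.7% of all genes passed. Below that mean, 4 of 16 (25.0%) and 26.5% passed. Within each of these count classes the share was near that of all genes, so the number of calls is not a result about the chromatin genes. Counts within roles and companion lists are given below beside the share of all genes, as descriptions with no test of the list.

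The median log2 fold change, pool A over pool B, was 0.11 over the 82 genes and 0.015 over all genes. With total counts alone as the scaling these medians were -0.033 and -0.13, and with upper-quartile factors 0.22 and 0.12. Their differences from 0 thus depend on the scaling. None of the 43 called genes changed direction under any scaling or test that was run.

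**Figure D1:**
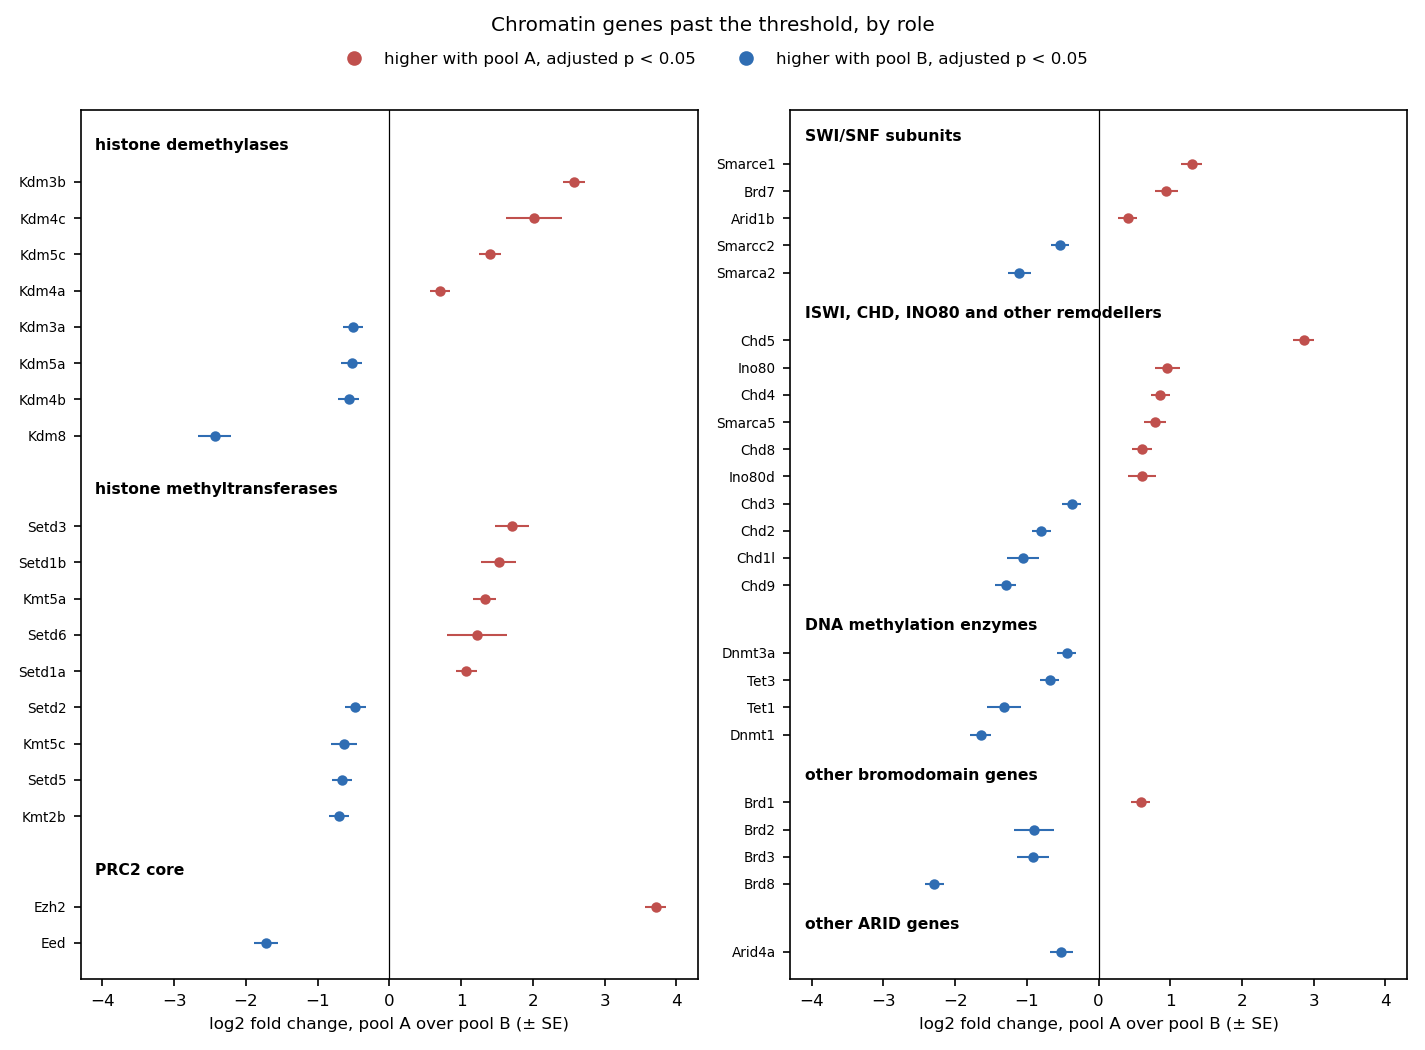
The log2 fold change of pool A over pool B with its standard error is plotted for the 43 chromatin genes past the threshold, sorted within 8 roles. Red marks the 20 genes higher with pool A and blue the 23 higher with pool B. Ezh2 lies farthest to the right at 3.71 and Kdm8 farthest to the left at -2.44.

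The Polycomb repressive complex PRC2 methylates histone H3 at silenced genes. Ezh2 and Ezh1 are its alternative catalytic subunits, and Suz12 and Eed are the scaffold and the reader that the enzymes need. Of the 4 core genes chosen by symbol, 1 was higher with each pool (50.0% called, beside 40.6% of all genes). Ezh2 (ENSRNOG00000006048) had 892, 975 and 915 CPM with pool A and 64.2, 68.4 and 79.3 CPM with pool B. Each pool A library lay more than 10-fold above every pool B library, and the libraries of a pool were close together. Pool A averaged 928 ± 42.9 CPM (SD, n = 3) and pool B averaged 70.6 ± 7.79 CPM (SD, n = 3), or 3.71 ± 0.15 (SE) as a log2 fold change (edgeR adjusted p = 3.94e-17). This is a 13.1-fold difference, the largest among the 82 genes.

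Eed (ENSRNOG00000017509) went the other way, with 52.0, 78.7 and 58.3 CPM with pool A and 192, 204 and 220.2 CPM with pool B. Its groups did not overlap, and the log2 fold change came to -1.71 ± 0.17 (SE) (edgeR adjusted p = 2.29e-09). Ezh1, the paralog of Ezh2 found mainly in non-dividing cells, had 82.3, 35.4 and 42.4 CPM with pool A and 37.0, 45.1 and 37.1 CPM with pool B. The groups overlapped, and replicate 1 of pool A stood above the 5 other libraries. The log2 fold change of 0.44 ± 0.26 (SE) did not pass (edgeR adjusted p = 0.181). It was -0.014 without pool A replicate 1 and 0.69 without pool A replicate 2, where it passed at an edgeR adjusted p of 0.0471. Suz12 had 11.97, 30.5 and 18.1 CPM with pool A and 12.8, 24.9 and 11.7 CPM with pool B, with overlapping groups and a log2 fold change of 0.30 ± 0.38 (SE) (edgeR adjusted p = 0.569). Without pool A replicate 2 this fold change was -0.080.

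A ratio of counts within a library does not depend on scaling, and the pairs for which it is given here were chosen after their values were seen. Ezh2 counts per Eed count were 17.2, 12.4 and 15.7 with pool A and 0.334, 0.336 and 0.360 with pool B. Ezh2 counts per Ezh1 count were 10.8, 27.6 and 21.6 with pool A and 1.73, 1.52 and 2.14 with pool B. Both ratios were higher in every pool A library than in any pool B library.

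Among the other PRC2 genes, listed as accessory, 7 of 8 were tested. Most encode proteins that steer the complex to its sites, while Rbbp4 and Rbbp7 encode histone-binding subunits. Higher with pool B were 5 and higher with pool A none, where 22% and 18.6% of all genes were, and the median log2 fold change was -0.49. Of the 5, Jarid2, Phf19 and Rbbp7 lost the call when 1 or more single libraries were left out. Mtf2, a Polycomb-like protein that binds CpG-rich DNA, had 20.4, 20.3 and 25.6 CPM with pool A and 60.6, 47.7 and 60.6 CPM with pool B, or -1.35 ± 0.23 (SE) as a log2 fold change (edgeR adjusted p = 2.99e-05). Aebp2, a zinc finger cofactor of the core complex, had 70.3, 66.3 and 76.1 CPM with pool A and 139.8, 157 and 149 CPM with pool B, or -1.06 ± 0.16 (SE) as a log2 fold change (edgeR adjusted p = 2.98e-06). Neither gene's groups overlapped. With upper-quartile factors Jarid2 and Phf19 lost their call (edgeR adjusted p of 0.0937 and 0.0704) and Rbbp4 and Phf1 became higher with pool A (0.0481 and 0.0476).

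PRC1 ubiquitinates histone H2A and reads the PRC2 mark. Of 17 tested genes, pool B gave the higher level for 5, pool A for 2, and 10 did not pass, a called share of 41.2% beside 40.6% of all genes. Cbx8, a chromodomain reader, had 20.1, 19.0 and 37.4 CPM with pool A and 124, 152 and 147 CPM with pool B. That is 5.45-fold more with pool B, with an edgeR adjusted p of 4.34e-10. Ring1, an E3 ligase of the complex, had 54.0, 57.5 and 63.6 CPM with pool A and 231, 257 and 236 CPM with pool B, a 4.13-fold difference with an edgeR adjusted p of 1.26e-11. For both genes every pool B library lay above every pool A library.

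**Figure D2:**
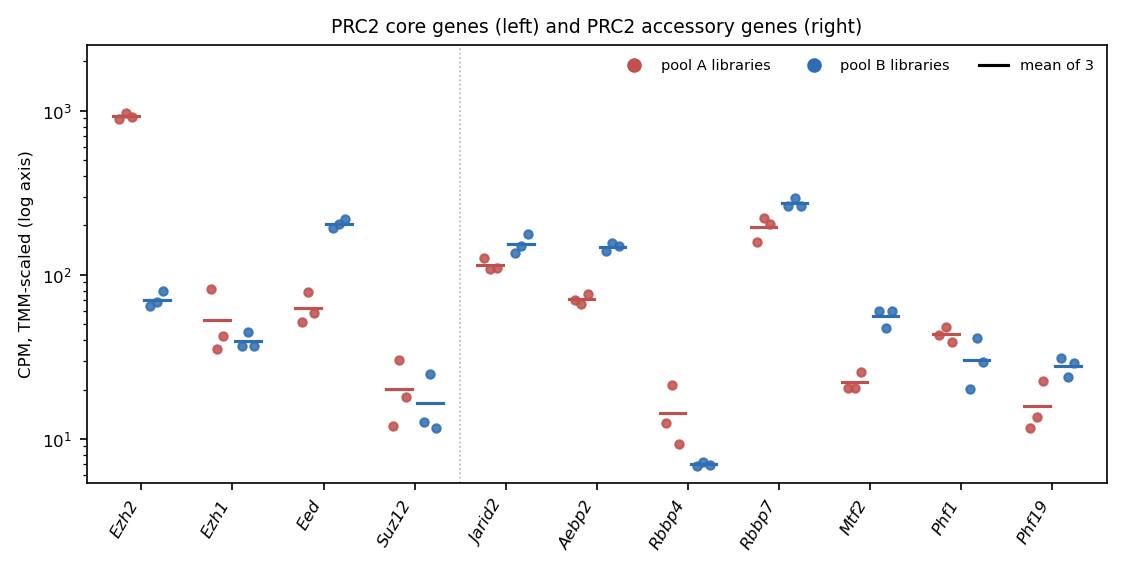
TMM-scaled CPM on a log axis are plotted in each of the 3 pool A (red) and 3 pool B (blue) libraries, with the mean as a bar. The genes are the 4 PRC2 core genes chosen by symbol and the 7 tested genes listed as accessory. Ezh2 is high in every pool A library, Eed, Mtf2 and Aebp2 are high in every pool B library, and the points of Ezh1 and Suz12 overlap.

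The Kmt and Setd genes encode mostly SET-domain enzymes that methylate lysines of histones and, for some members, of other proteins. All 14 were tested, 5 were higher with pool A (35.7%, beside 18.6% of all genes), 4 were higher with pool B (28.6%, beside 22%), and 5 did not pass. Log2 fold changes of these 5 lay between -0.21 and 0.32. Each of the 5 differences in favour of pool A exceeded 2-fold, and none of those in favour of pool B did. Setd3, which methylates a histidine of actin, had 78.5, 86.2 and 97.0 CPM with pool A and 35.4, 29.5 and 15.0 CPM with pool B. Its groups did not overlap, and its log2 fold change came to 1.71 ± 0.24 (SE) (edgeR adjusted p = 1.36e-06).

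Setd1a and Setd1b encode alternative catalytic subunits of COMPASS, the complex that methylates histone H3 at active promoters, and both were higher with pool A. Setd1b had 80.0, 68.5 and 54.0 CPM with pool A and 21.0, 31.6 and 18.7 CPM with pool B, or 1.53 ± 0.24 (SE) as a log2 fold change (edgeR adjusted p = 8.69e-06). Setd1a had 232, 263 and 223 CPM with pool A and 114, 109 and 118 CPM with pool B, or 1.07 ± 0.14 (SE) as a log2 fold change (edgeR adjusted p = 5.44e-07). Kmt2b, a catalytic subunit of a related complex, was higher with pool B, with 173, 154 and 142 CPM with pool A and 266, 257 and 244 CPM with pool B and a log2 fold change of -0.71 ± 0.14 (SE) (edgeR adjusted p = 1.41e-04). In all 3 genes the pools' ranges were apart. Kmt2a, its close paralog, did not pass at 0.32 ± 0.14 (SE) (edgeR adjusted p = 0.0799), and did so with upper-quartile factors (0.0194) and under the filter of 10 counts per library (0.0482).

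The enzymes of histone H4 lysine methylation also differed in direction. Kmt5a, which places the initial methyl group, had 278, 353 and 250.2 CPM with pool A and 92.0, 127 and 131 CPM with pool B, or 1.33 ± 0.16 (SE) as a log2 fold change (edgeR adjusted p = 1.21e-07). Kmt5c, which adds further methyl groups, had 64.2, 69.8 and 92.4 CPM with pool A and 128, 131 and 92.8 CPM with pool B, or -0.63 ± 0.18 (SE) as a log2 fold change (edgeR adjusted p = 0.0062). In Kmt5c, replicate 3 of either pool came within 1 CPM of the other. Kmt5b, its paralog, did not pass at 0.084 ± 0.18 (SE).

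Setd5, named as the gene of this role with the highest mean CPM, had 162, 209.9 and 207 CPM with pool A and 314, 316 and 287 CPM with pool B. It was 1.58-fold higher with pool B (log2 fold change -0.66 ± 0.14 (SE), edgeR adjusted p = 3.28e-04). Setd2, which trimethylates histone H3 along transcribed genes, was higher with pool B as well, at -0.48 ± 0.15 (SE) with an edgeR adjusted p of 0.0102, and lost its call without pool A replicate 1 (0.0824) or pool B replicate 1 (0.0620). Setd6, which methylates the NF-kappaB subunit RelA, had 30.4, 16.8 and 13.1 CPM with pool A and 13.1, 5.70 and 6.61 CPM with pool B. Replicate 1 was the highest library of each pool, and the groups nearly touched. The difference, 1.22 ± 0.42 (SE) in log2, had an edgeR adjusted p of 0.0199, and this p was 0.233 without pool A replicate 1, 0.0688 on leaving out replicate 2 of pool B and 0.0798 on leaving out its replicate 3.

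The shared core and partners of the COMPASS complexes comprised 12 tested genes, of which 6 were higher with pool B (50.0%, beside 22% of all genes) and 1 with pool A (8.33%, beside 18.6%). The median log2 fold change was -0.24. Ash2l, which stimulates the catalytic subunits, had 212, 205 and 182 CPM with pool A and 863, 869 and 974 CPM with pool B, a 4.52-fold difference with an edgeR adjusted p of 2.75e-13. Wdr5, the adaptor of the same core, had 21.6, 28.3 and 30.0 CPM with pool A and 91.4, 151 and 131 CPM with pool B, a 4.67-fold difference with an edgeR adjusted p of 1.41e-09. Both genes stood apart between pools, in the direction opposite to Setd1a and Setd1b. Ncoa6, the gene higher with pool A, lost its call with total counts alone (edgeR adjusted p = 0.157), and Hcfc1 with upper-quartile factors (0.134), where Dpy30 passed in favour of pool A (0.0443).

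Among 14 tested lysine methyltransferase genes with other symbols, 5 were higher with pool B, 2 with pool A, and 7 did not pass (50.0% called, beside 40.6% of all genes). Smyd2, which methylates p53 among other proteins, had 93.7, 66.3 and 97.7 CPM with pool A and 387, 407 and 465 CPM with pool B, a 4.85-fold difference with an edgeR adjusted p of 2.07e-12. Smyd4 had 27.4, 17.2 and 20.3 CPM with pool A and 3.60, 3.63 and 7.71 CPM with pool B, a 4.297-fold difference the other way with an edgeR adjusted p of 2.07e-04. Its pool B libraries held few reads, with 94, 39 and 65 counts with pool A and 11, 7 and 21 counts with pool B.

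Histone demethylases fall into flavin-dependent enzymes, Kdm1a and Kdm1b, and iron-dependent enzymes with a JmjC domain, which make up the rest. Of 18 genes, 16 were tested. With pool A 4 were higher (25.0%, beside 18.6% of all genes), with pool B 4 (25.0%, beside 22%), and 8 did not pass. Those 8 had log2 fold changes between -0.31 and 0.53. Kdm3b, which removes repressive methyl groups from histone H3, had 556, 673 and 556 CPM with pool A and 98.6, 121 and 80.4 CPM with pool B. No pool B library came near the pool A libraries, and pool A averaged 595 ± 67.4 CPM (SD, n = 3) against 100.1 ± 20.5 CPM (SD, n = 3) for pool B. The log2 fold change came to 2.58 ± 0.16 (SE) (edgeR adjusted p = 1.75e-13), a 5.97-fold difference.

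Its paralog Kdm3a has the same type of activity and was higher with pool B, with 244, 289.9 and 331 CPM with pool A and 385, 380.3 and 458 CPM with pool B. The groups were apart but close, and the log2 fold change came to -0.50 ± 0.14 (SE) (edgeR adjusted p = 0.00477). Kdm3b counts per Kdm3a count were 2.28, 2.32 and 1.68 with pool A and 0.256, 0.319 and 0.175 with pool B.

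The Kdm4 genes, whose products remove trimethyl marks of histone H3, split in the same manner. Kdm4c had 23.6, 20.8 and 21.2 CPM with pool A and 6.55, 4.66 and 4.77 CPM with pool B, or 2.02 ± 0.39 (SE) as a log2 fold change (edgeR adjusted p = 1.39e-04). These rest on 81, 47 and 68 counts with pool A and 20, 9 and 13 counts with pool B, and under the filter of 10 counts per library the gene was not tested. Kdm4a was higher with pool A as well, with 317, 275 and 245 CPM with pool A and 162, 173 and 179 CPM with pool B and a log2 fold change of 0.71 ± 0.14 (SE) (edgeR adjusted p = 1.69e-04). Kdm4b was higher with pool B, with 109, 103 and 113 CPM with pool A and 144, 182 and 156 CPM with pool B and a log2 fold change of -0.57 ± 0.15 (SE) (edgeR adjusted p = 0.0033). The ranges of each of these 3 genes were apart between pools.

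Kdm5 enzymes remove methyl groups that mark active promoters. Kdm5c had 335, 254 and 254 CPM with pool A and 112, 118 and 88.4 CPM with pool B, or 1.41 ± 0.16 (SE) as a log2 fold change (edgeR adjusted p = 2.62e-08). Kdm5a had 208, 209 and 173 CPM with pool A and 301, 239 and 309 CPM with pool B, or -0.53 ± 0.14 (SE) as a log2 fold change (edgeR adjusted p = 0.00379). All pool A libraries were higher for Kdm5c and lower for Kdm5a. Kdm5b did not pass at 0.32 ± 0.16 (SE) (edgeR adjusted p = 0.118), and passed with upper-quartile factors (0.0364).

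Kdm8, a JmjC-domain protein also known as an arginine hydroxylase, had 17.8, 18.6 and 12.5 CPM with pool A and 72.0, 94.8 and 96.9 CPM with pool B. Every pool B library was several times above every pool A library. Its log2 fold change came to -2.44 ± 0.23 (SE) (edgeR adjusted p = 1.28e-09), a 5.41-fold difference and the largest in favour of pool B among the 82 genes. Kdm6a and Kdm6b, which remove the mark that PRC2 places, did not pass, at 0.53 ± 0.41 (SE) for the former and -0.026 ± 0.20 (SE) for the latter.

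Of 7 tested JmjC genes with other symbols, 1 was higher with each pool (28.6% called, beside 40.6% of all genes). Jmjd6, a lysyl hydroxylase of splicing factors, had 32.1, 25.2 and 33.7 CPM with pool A and 80.2, 83.9 and 98.4 CPM with pool B, or -1.52 ± 0.20 (SE) as a log2 fold change (edgeR adjusted p = 5.15e-07). Phf2, a demethylase partner with a PHD finger, had 91.4, 78.2 and 106 CPM with pool A and 45.5, 48.2 and 58.7 CPM with pool B, or 0.86 ± 0.19 (SE) as a log2 fold change (edgeR adjusted p = 5.30e-04). The ranges were apart for both.

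Some closely related paralogs differed in direction, as a grouping made after the values were seen shows. Where symbols differ only in a final letter, the 82 genes form 14 families of 2 or more, leaving out Ino80b, Ino80c, Ino80d and Ino80e, which share a name as subunits of a complex and are not paralogs. In 4 of these, Kdm3, Kdm4, Kdm5 and Kmt5, at least 1 member was higher with pool A and at least 1 with pool B. The matching share over symbol families of all genes was not computed, so this count is not a result about the families. The widest span was that of Kdm3, at 3.08 on the log2 scale, and the narrowest that of Arid3, at 0.00079, where neither member passed. Setd1 was the family in which every member passed in the same direction. In 4 or 5 families members were called in both directions under every other scaling, filter and tool and without any single library. In the test against a 1.5-fold change no family was, as the pool B member of each lost its call, at an edgeR adjusted p of 0.749 for Kdm3a, 0.568 for Kdm4b, 0.681 for Kdm5a and 0.419 for Kmt5c.

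**Figure D3:**
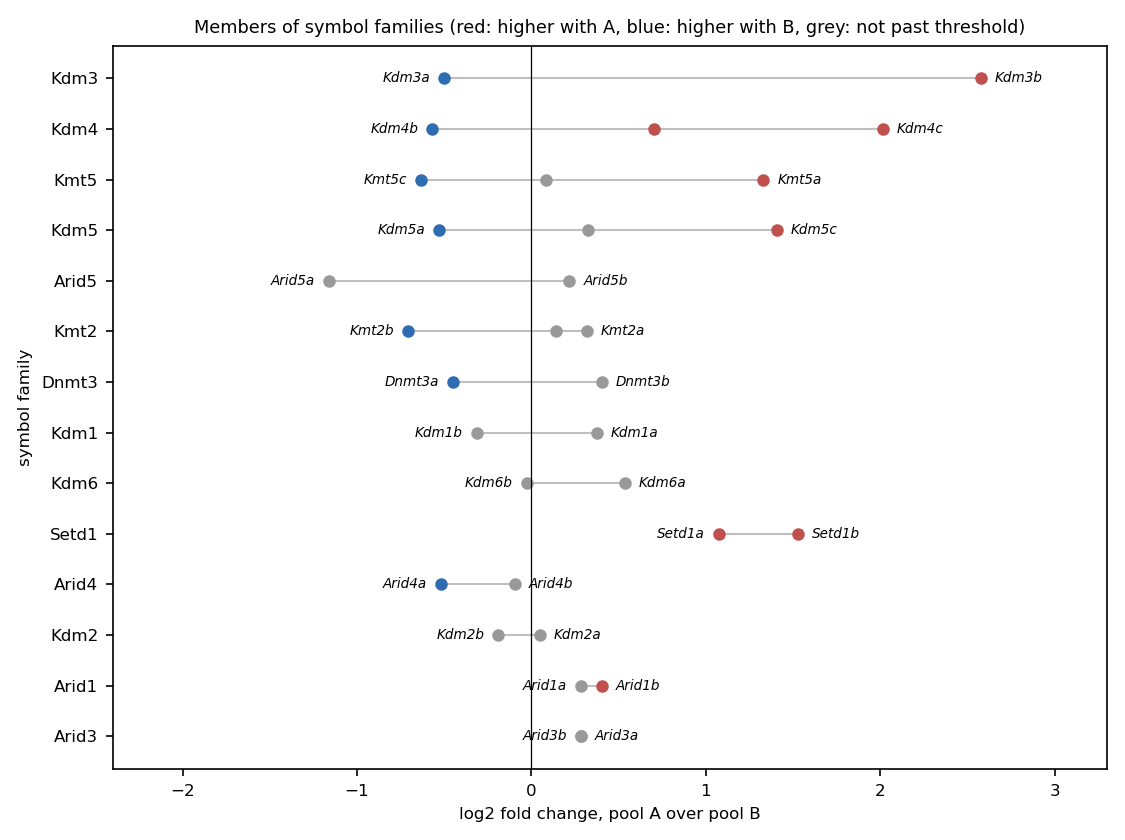
Log2 fold changes of pool A over pool B are plotted for the 14 symbol families, without the Ino80 subunits, sorted by span, with the lowest and highest member labelled. Kdm3, Kdm4, Kmt5 and Kdm5 each hold a red point (higher with pool A) and a blue point (higher with pool B), while both Setd1 points are red.

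The remodelling ATPases outside SWI/SNF and their partners gave 18 tested genes of 19. Higher with pool A were 6 (33.3%, beside 18.6% of all genes), higher with pool B 4 (22.2%, beside 22%), and 8 did not pass. Chd5, a CHD-family ATPase known from neurons, had 1722, 1955 and 1919 CPM with pool A and 263, 226 and 281 CPM with pool B. The groups were far apart, pool A averaging 1865 ± 125 CPM (SD, n = 3) against 257 ± 28.3 CPM (SD, n = 3) for pool B. Its log2 fold change came to 2.86 ± 0.14 (SE) (edgeR adjusted p = 3.84e-15), a 7.25-fold difference and, after Ezh2, the largest in favour of pool A among the 82 genes. Chd4, the main ATPase of the NuRD complex, had 1659, 1467 and 1465 CPM with pool A and 846, 832 and 847 CPM with pool B, a 1.82-fold difference (log2 fold change 0.86 ± 0.13 (SE), edgeR adjusted p = 3.08e-06). Chd3, the third ATPase of that subfamily, had 429, 362 and 466 CPM with pool A and 550.5, 551 and 529.6 CPM with pool B and a log2 fold change of -0.37 ± 0.13 (SE) (edgeR adjusted p = 0.0225). This call in favour of pool B was lost with upper-quartile factors (0.0946) and on leaving out replicate 2 of pool A (0.194), or replicate 1 (0.0547) or 2 (0.0585) of pool B. Chd5 counts per Chd4 count were 1.04, 1.33 and 1.31 with pool A and 0.311, 0.271 and 0.332 with pool B, higher in every pool A library.

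Chd9 had 82.3, 104 and 89.9 CPM with pool A and 232, 221 and 222 CPM with pool B, or -1.29 ± 0.15 (SE) as a log2 fold change (edgeR adjusted p = 4.32e-08). Chd1l, an ATPase activated by poly(ADP-ribose) at DNA breaks, had 29.2, 34.0 and 24.6 CPM with pool A and 52.7, 60.6 and 69.0 CPM with pool B, or -1.06 ± 0.22 (SE) as a log2 fold change (edgeR adjusted p = 3.27e-04). Chd2 was higher with pool B as well, at -0.80 ± 0.13 (SE) (edgeR adjusted p = 1.03e-05). In these 3 genes every pool B library lay above every pool A library. Chd8, an ATPase that binds beta-catenin, was higher with pool A at 0.61 ± 0.14 (SE) (edgeR adjusted p = 7.24e-04), while Chd1, Chd6 and Chd7 did not pass, with values from 0.20 to 0.27. Chd6 passed in favour of pool A with upper-quartile factors (0.0266), as did Smarcad1 (0.0306).

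Ino80, the ATPase of the complex of that name, had 130.5, 197 and 147 CPM with pool A and 94.96, 72.5 and 75.2 CPM with pool B, or 0.96 ± 0.17 (SE) as a log2 fold change (edgeR adjusted p = 5.67e-05). Smarca5, the main ISWI ATPase, had 221, 271 and 225 CPM with pool A and 158, 118 and 137 CPM with pool B, or 0.79 ± 0.15 (SE) as a log2 fold change (edgeR adjusted p = 9.61e-05). Both were higher in every pool A library. Ino80d was higher with pool A at 0.60 ± 0.20 (SE) (edgeR adjusted p = 0.0169), a call lost with total counts alone (0.0824), on leaving out replicate 3 of pool A (0.0569) or replicate 3 of pool B (0.109). Ino80b, Ino80c and Ino80e did not pass, at -1.47, -0.068 and -0.38. Ino80b had few reads, with 2, 11 and 1 counts with pool A and 8, 14 and 14 counts with pool B, and passed in favour of pool B without pool A replicate 2, at -3.30 (edgeR adjusted p = 0.0303).

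The other subunits of INO80, SRCAP and TIP60 complexes comprised 18 tested genes, of which 7 were higher with pool A, 1 with pool B, and 10 did not pass. That is 38.9% for pool A and 5.56% for pool B, beside 18.6% and 22% of all genes. Ruvbl2, an AAA+ ATPase shared by these complexes, had 446, 390.3 and 359 CPM with pool A and 77.0, 96.9 and 146 CPM with pool B, or 1.90 ± 0.18 (SE) as a log2 fold change (edgeR adjusted p = 9.43e-10). Nfrkb, an INO80 subunit and the 1 gene higher with pool B, had 77.6, 80.0 and 79.3 CPM with pool A and 286, 360.1 and 279 CPM with pool B, or -1.96 ± 0.15 (SE) as a log2 fold change (edgeR adjusted p = 1.79e-11). Neither overlapped between pools. With total counts alone Mcrs1, Kat5 and Trrap lost their call for pool A (edgeR adjusted p of 0.0626, 0.0881 and 0.187) and Actr8 passed in favour of pool B (0.0471). Actr5 did not pass (edgeR adjusted p = 0.0601), but passed in favour of pool A with upper-quartile factors (0.0239), without the filter (0.0275), under the filter of 10 counts per library (0.0331) and with limma-voom (limma adjusted p = 0.0220).

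Of 8 tested NuRD subunits outside the CHD family, 4 were higher with pool B and 1 with pool A (62.5% called, beside 40.6% of all genes). Gatad2a, a zinc finger subunit, had 1334, 1395 and 1127 CPM with pool A and 185, 207 and 208 CPM with pool B, a 6.43-fold difference with an edgeR adjusted p of 1.08e-14. Mbd2, the subunit that binds methylated DNA, had 51.1, 48.6 and 45.9 CPM with pool A and 145, 209.8 and 204 CPM with pool B, a 3.83-fold difference in the other direction with an edgeR adjusted p of 3.96e-10. Their ranges were wide apart.

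Of 11 tested partners of ISWI and other remodellers, 4 were higher with pool B and 2 with pool A (54.5% called, beside 40.6% of all genes). Rsf1, a histone-binding partner of Smarca5, had 246, 267 and 242 CPM with pool A and 727, 714 and 931 CPM with pool B, or -1.65 ± 0.14 (SE) as a log2 fold change (edgeR adjusted p = 1.17e-10). Hells, a remodeller needed for DNA methylation of repeats, had 55, 37 and 72 counts with pool A and 5, 0 and 2 counts with pool B. Its fitted log2 fold change of 4.304 ± 0.62 (SE) (edgeR adjusted p = 2.23e-06) rests on these few pool B reads and came to 5.29 on leaving out replicate 1 of pool B and to 3.88 on leaving out replicate 2.

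SWI/SNF, also known as BAF, is built on either of the ATPases Smarca2 or Smarca4 with a set of core and accessory subunits. Of 14 genes in this role 13 were tested, 3 were higher with pool A (23.1%, beside 18.6% of all genes), 2 were higher with pool B (15.4%, beside 22%), and 8 did not pass. Smarce1, a DNA-binding HMG subunit, had 396, 371 and 370.4 CPM with pool A and 162, 179.8 and 121 CPM with pool B. All pool A libraries lay above all pool B libraries, and the log2 fold change came to 1.30 ± 0.15 (SE) (edgeR adjusted p = 3.60e-08). Smarca2 had 82.6, 70.3 and 78.3 CPM with pool A and 177, 138 and 183 CPM with pool B, or -1.11 ± 0.16 (SE) as a log2 fold change (edgeR adjusted p = 2.28e-06). Smarca4, its alternative, had 442, 514 and 568 CPM with pool A and 521, 588 and 502 CPM with pool B, with overlapping groups and a log2 fold change of -0.080 ± 0.13 (SE) (edgeR adjusted p = 0.677).

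Smarcc1 and Smarcc2 encode scaffold subunits of the complex. Smarcc2, named as the SWI/SNF gene with the highest mean CPM, had 443, 477 and 517 CPM with pool A and 699, 706 and 683 CPM with pool B and a log2 fold change of -0.54 ± 0.13 (SE) (edgeR adjusted p = 0.00104). Smarcc1 had 386, 412 and 397 CPM with pool A and 453, 423 and 429 CPM with pool B, with groups that did not overlap, and its log2 fold change of -0.13 ± 0.12 (SE) did not pass. Brd7, the bromodomain subunit of the PBAF form, had 143, 169 and 186 CPM with pool A and 76.0, 83.4 and 99.8 CPM with pool B, or 0.94 ± 0.16 (SE) as a log2 fold change (edgeR adjusted p = 2.65e-05). Arid1b was higher with pool A at 0.40 ± 0.14 (SE) (edgeR adjusted p = 0.0196), a call lost with total counts alone (0.173), on leaving out replicate 1 of pool A (0.0810) or replicate 2 of pool B (0.0700). The 8 genes that did not pass had log2 fold changes between -0.21 and 0.28, and 1 of them, Arid1a, passed in favour of pool A with upper-quartile factors (edgeR adjusted p = 0.0330) and without pool A replicate 2 (0.0493).

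Of 15 tested SWI/SNF genes with other symbols, pool A gave the higher level for 6 (40%, beside 18.6% of all genes) and pool B for 1 (6.67%, beside 22%). The gene higher with pool B, Ss18, had 45.8, 28.7 and 40.9 CPM with pool A and 335, 443 and 425 CPM with pool B, a 10.3-fold difference with an edgeR adjusted p of 8.90e-15. Its paralog Ss18l1, the form found in neurons, had 132, 97.7 and 106 CPM with pool A and 29.1, 26.9 and 28.6 CPM with pool B, a 3.95-fold difference in favour of pool A with an edgeR adjusted p of 2.47e-09. The ranges of each were wide apart. With total counts alone Dpf1 and Bcl11b lost their call (edgeR adjusted p of 0.0837 and 0.0555), and Phf10 and Bicral passed in favour of pool B (0.0119 and 0.0180).

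**Figure D4:**
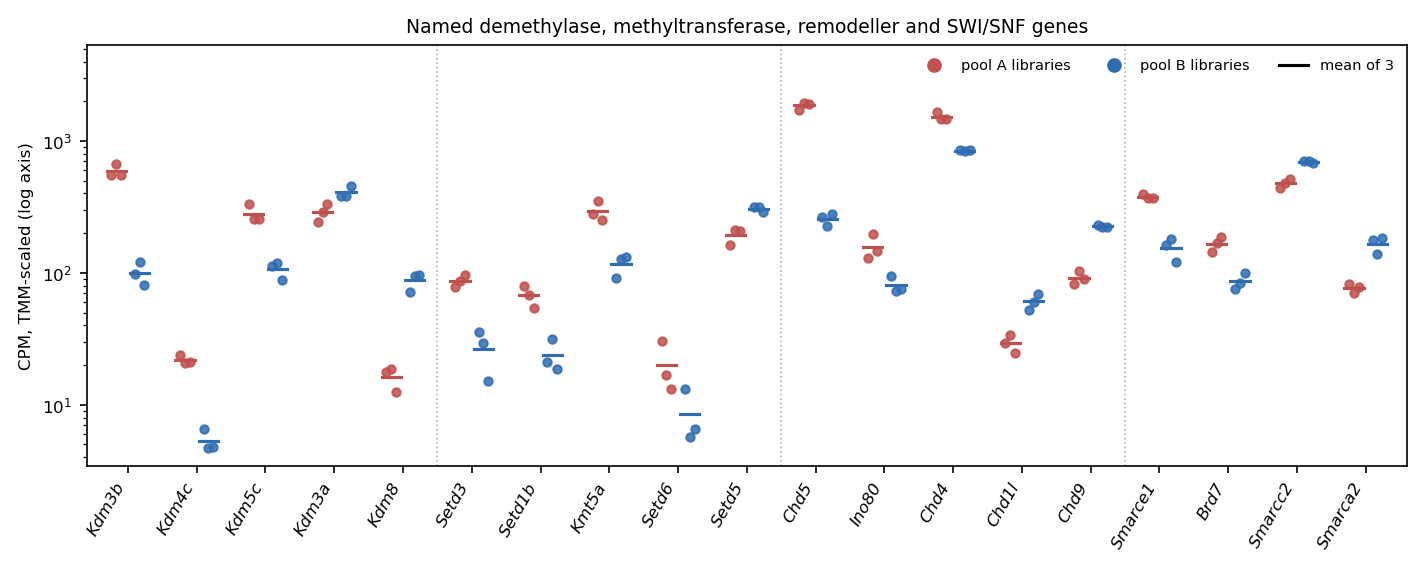
TMM-scaled CPM on a log axis are plotted for 19 named genes in 3 pool A (red) and 3 pool B (blue) libraries, with the mean as a bar. From left to right these are demethylases, methyltransferases, remodellers and SWI/SNF subunits. Kdm3b and Chd5 show the widest gaps in favour of pool A and Kdm8 the widest in favour of pool B, while the points of Setd6 nearly meet.

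Dnmt1 copies cytosine methylation after replication, Dnmt3a and Dnmt3b set it anew, and the Tet enzymes oxidise it toward removal. Of 7 such genes 6 were tested. With pool B 4 were higher, where 22% of all genes were, and with pool A none. In the test against a 1.5-fold change Dnmt3a (edgeR adjusted p = 0.879) and Tet3 (0.252) lost their calls. Dnmt1 (ENSRNOG00000039859) had 531, 537 and 670.2 CPM with pool A and 1495, 1936 and 1998 CPM with pool B. Every pool B library was more than 2-fold above every pool A library, and the log2 fold change came to -1.64 ± 0.14 (SE) (edgeR adjusted p = 3.44e-10), a 3.12-fold difference. Dnmt3a had 476, 392 and 451 CPM with pool A and 597, 562 and 641 CPM with pool B, or -0.45 ± 0.13 (SE) as a log2 fold change (edgeR adjusted p = 0.00664), and this p was 0.0768 without pool A replicate 2. Dnmt3b had 21.3, 20.8 and 13.1 CPM with pool A and 13.4, 11.4 and 16.5 CPM with pool B, with overlapping groups and a log2 fold change of 0.40 ± 0.35 (SE) (edgeR adjusted p = 0.39). Dnmt1 counts per Dnmt3a count were 1.12, 1.37 and 1.48 with pool A and 2.51, 3.44 and 3.12 with pool B.

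Tet1 had 21.6, 24.8 and 18.4 CPM with pool A and 52.1, 59.1 and 49.5 CPM with pool B, or -1.31 ± 0.24 (SE) as a log2 fold change (edgeR adjusted p = 4.85e-05). Tet3 had 191, 212 and 189 CPM with pool A and 332, 319.7 and 299 CPM with pool B, or -0.68 ± 0.13 (SE) as a log2 fold change (edgeR adjusted p = 1.29e-04). Tet2 had 131, 119.8 and 121 CPM with pool A and 151, 157 and 154 CPM with pool B, and its groups did not overlap either. Its log2 fold change of -0.31 ± 0.14 (SE) did not pass (edgeR adjusted p = 0.0912), and did with total counts alone (0.0202).

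Of 8 tested readers and partners of DNA methylation, 3 were higher with pool B, 1 with pool A, and 4 did not pass, a called share of 50.0% beside 40.6% of all genes. Uhrf1, which brings Dnmt1 to replicated DNA, was higher with pool B, with 194, 206 and 237 CPM with pool A and 394, 526 and 484 CPM with pool B and a log2 fold change of -1.14 ± 0.14 (SE) (edgeR adjusted p = 1.67e-07). Its paralog Uhrf2 had 300.3, 284 and 339 CPM with pool A and 88.4, 72.5 and 70.8 CPM with pool B, or 1.99 ± 0.15 (SE) as a log2 fold change (edgeR adjusted p = 1.61e-11). Zbtb4, a zinc finger protein that binds methylated DNA, had 14.6, 17.2 and 21.8 CPM with pool A and 57.6, 72.5 and 61.3 CPM with pool B, or -1.83 ± 0.24 (SE) as a log2 fold change (edgeR adjusted p = 4.37e-07). In each the pools' ranges were apart.

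**Figure D5:**
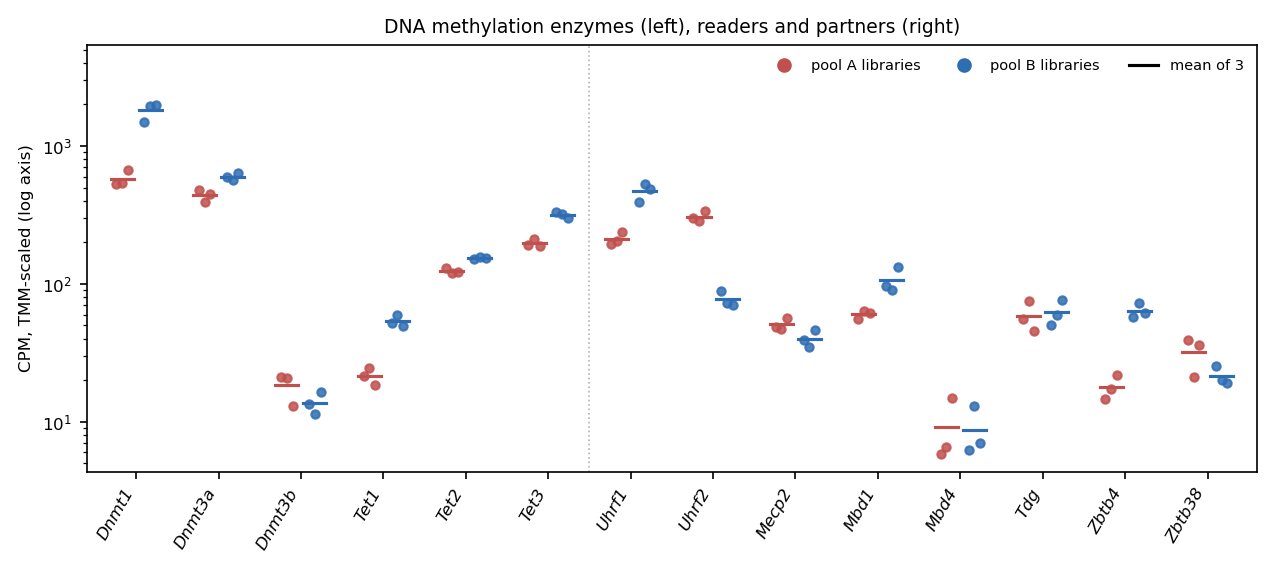
TMM-scaled CPM on a log axis are plotted in 3 pool A (red) and 3 pool B (blue) libraries for 6 DNA methylation enzymes and 8 tested readers and partners, with the mean as a bar. Dnmt1, Tet1 and Tet3 are higher in all pool B libraries, and Uhrf1 and Uhrf2 lie on opposite sides.

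Bromodomains read acetylated lysines. Of 5 genes with this symbol outside SWI/SNF, all tested, 3 were higher with pool B (60%, beside 22% of all genes) and 1 with pool A (20.0%, beside 18.6%). Brd8, a subunit of the TIP60 acetyltransferase complex, had 151, 139.7 and 145 CPM with pool A and 668, 720.1 and 744 CPM with pool B. The groups were far apart, and the log2 fold change came to -2.29 ± 0.13 (SE) (edgeR adjusted p = 8.17e-14), a 4.89-fold difference. Brd1, a scaffold of histone acetyltransferase complexes, had 329, 327 and 319 CPM with pool A and 222, 202 and 225 CPM with pool B, or 0.59 ± 0.13 (SE) as a log2 fold change (edgeR adjusted p = 6.07e-04), and its groups did not overlap.

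Brd2 and Brd3 belong to the BET family, which encodes paired-bromodomain proteins that couple acetylated chromatin to transcription. Brd3 had 43.2, 64.5 and 78.3 CPM with pool A and 76.0, 159.6 and 117 CPM with pool B, and pool A replicate 3 exceeded pool B replicate 1, so the groups overlapped. Its log2 fold change came to -0.91 ± 0.23 (SE) (edgeR adjusted p = 0.00176). Brd2 had 13.4, 19.0 and 29.0 CPM with pool A and 35.7, 41.4 and 37.8 CPM with pool B, or -0.90 ± 0.28 (SE) as a log2 fold change (edgeR adjusted p = 0.0114), and this p was 0.0873 without pool A replicate 1.

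ARID proteins bind DNA through a shared domain. Outside SWI/SNF 6 of 7 were tested and 1 passed (16.7%, beside 40.6% of all genes). Arid4a, a partner of the retinoblastoma protein in Sin3 complexes, had 79.1, 97.2 and 108 CPM with pool A and 122, 135 and 150.1 CPM with pool B. The groups were apart, and the log2 fold change came to -0.52 ± 0.16 (SE) (edgeR adjusted p = 0.0112), with a p of 0.0879 on leaving out replicate 1 of pool A and of 0.0705 on leaving out replicate 3 of pool B. Log2 fold changes of the 5 others lay between -1.16 (Arid5a, 15, 3 and 4 counts with pool A and 21, 10 and 11 counts with pool B) and 0.28 (Arid3a).

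Over all companion lists, 117 of 132 genes were tested. Pool A gave the higher value for 23 of those called and pool B for 35, and 49.6% were called in all, beside 40.6% of all genes. With total counts alone the split was 17 to 40, and with upper-quartile factors 28 to 31. Among genes with a mean of at least 100 counts 62.5% of the companion genes passed, beside 61.7% of all genes, and below that mean 21.6%, beside 26.5%.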

How the data were processed

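RNA-seq of psoralen pull-downs from GH4C1 cells was analysed in 6 strand-specific libraries, 3 per oligo pool. The authors deposited whole-number counts per gene with Ensembl identifiers and gene names, and other columns, the mean count of each pool, which were not used. STAR and featureCounts are named in the submitters' processing notes, without versions. The genome build, annotation and strand setting are not given in the sources used here, so reads of overlapping, antisense or closely paralogous genes may be shared.

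Counts were tested with edgeR 4.0.16 in R 4.3.3: TMM scaling, filterByExpr, quasi-likelihood test with the pool as the only term, Benjamini-Hochberg adjustment over all 11582 genes tested, threshold 0.05. The standard error is the log2 fold change divided by the square root of the F statistic. Alternatives used DESeq2 1.42.0, limma 3.58.1 (voom), other scalings and filters, a replicate block, and each library left out. Floors cover counting error only.

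In 10 simulated data sets, each with 200 changed genes, 11306 to 11356 genes were tested. The test recovered 86.3% of 4-fold and 50.3% of 2-fold changes, with 5.58% false calls. Far more genes differed in the data, where 40.6% of those tested were called, so these rates may not hold there.

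Members, roles and companion lists were chosen with earlier results of these data known. Values in every library are given for up to 4 members per role with the largest fold change among those past the threshold with a mean of at least 10 counts, the member with the highest CPM, all PRC2 core and DNA methylation genes, and up to 2 genes past the threshold per companion list. Setd1a, Kmt2a, Kmt2b, Kmt5b, Kmt5c, Setd2, Kdm4a, Kdm4b, Kdm5a, Kdm5b, Kdm6a, Kdm6b, Chd1, Chd2, Chd3, Chd6, Chd7, Chd8, Smarca4, Smarca5, Smarcc1, Ino80b, Ino80c, Ino80d, Ino80e, Smarcad1, Arid1a, Arid1b, Arid3a, Arid5a, Uhrf1 and companion genes whose call depends on the scaling were named after their values were seen.

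Libraries of a pool differed beyond sampling noise, with a chi-square per degree of freedom of 6.37 to 23.3 over genes with at least 40 counts in a pair. Same-numbered libraries deviated together with r of 0.043, -0.014 and 0.022, so numbers were not taken as pairs. The labels give no batch. The values of 1 tested gene are not reported here.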

Additional observations from a re-analysis of the deposited data

How the results depend on the processing

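Of 20 and 23 chromatin genes higher with pool A and pool B, 13 and 8 remained against a 1.5-fold change, which put 61.9% of the calls with pool A in place of 46.5%. The companion genes numbered 13 and 22 there, in place of 23 and 35. This test is stricter by construction. Under the other settings with all libraries the chromatin counts stayed within 1.5 times. Leaving out a library gave 18 to 22 and 21 to 23 chromatin genes, and 19 to 23 and 30 to 35 companion genes. The share of chromatin calls with pool A was 42.9% with total counts and 54.2% with upper-quartile scaling.

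For the chromatin genes the median log2 fold change moved from 0.11 to -0.033 under total counts, to 0.22 under upper-quartile factors, to 0.066 under limma-voom, and to between 0.027 and 0.10 on omitting any single library.

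Fitting the replicate number as a block, all 43 calls were kept in the same direction and none was gained, with 20 and 23 genes. Among companion genes Dpf1 lost its call (edgeR adjusted p = 0.0509) and Actr5 gained one for pool A (0.0445). Same-numbered libraries did not deviate together, so the numbers were not taken to pair them.

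In the test against a 1.5-fold change 11 of the 54 genes named by rule lost their call. Of their 753 refits under the other settings, 742 kept direction and side of the threshold, 7 lost the call, 2 gained it, and 2 changed sign without passing: Ezh1, from -0.014 to 0.69 over the single libraries left out, and Suz12, from -0.080 to 0.69. Companion calls lost without at least 1 of the libraries were Jarid2, Phf19, Rbbp7, Hcfc1, Ncoa6, Wdr82, Ehmt1, Nsd2, Dpf1, Actl6b, Baz1b, Mcrs1, Kat5 and Trrap. The relation with protein length was not run, since no protein sequences were used here. Of the members with a mean below 100 counts, 4 of 16 passed, and the part of depth in this was not tested.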

Other observations

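Rows of the table next to the chromatin genes that were named by rule and passed the test were read as a description, and whether the rows follow genome positions was not tested. Of 60 rows directly beside these 30 genes, 28 were tested. In the same direction as the chromatin gene 10 were called, 3 in the opposite direction, and 15 did not pass, a share called of 46.4% beside 40.6% of all genes. Within 2 rows on each side 57 were tested, 15 were called in the same direction, 10 in the opposite direction and 32 did not pass, a share of 43.9%. Both shares are near that of all genes, and agreement in direction was not tested. Beside Ezh2, Cul1, a cullin scaffold of ubiquitin ligases, had a log2 fold change of 0.47 with an edgeR adjusted p of 0.0458. Beside Kdm3b, Reep2 was higher with pool A at 0.60 (edgeR adjusted p = 0.0331) and Fam53c did not pass at -0.57 (0.0788). Beside Dnmt1, Eif3g, a translation initiation factor subunit, was higher with pool B at -2.39. Beside Brd1, Zbed4 was higher with pool A at 2.97. The 3 called in the opposite direction were Iqsec2 beside Kdm5c at -1.15, a U6 row beside Setd5 at 2.13 and Psma3 beside Arid4a at 0.76. Whether reads of neighbouring genes were separated was not tested. Brd8 and Kdm3b, a pair chosen after their values were seen, went in opposite directions, and Kdm3b counts per Brd8 count were 3.68, 4.82 and 3.84 with pool A and 0.148, 0.168 and 0.108 with pool B.

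Kdm4d, a testis-enriched demethylase that did not pass the filter, had 2, 0 and 0 counts with pool A and 6, 10 and 10 counts with pool B. Without the filter it was higher with pool B, at a fitted log2 fold change of -3.79 that rests on these few reads (edgeR adjusted p = 0.0395).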
